A study of Mus musculus with 8 samples.

Results

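Chaperonins are barrel-shaped machines that enclose an unfolded protein and let it fold away from other proteins. Messenger RNA of the 10 genes that encode the cytosolic chaperonin CCT (Tcp1, Cct2, Cct3, Cct4, Cct5, Cct6a, Cct7 and Cct8) and the mitochondrial chaperonin (Hspd1 and Hspe1) was examined in intestinal epithelial cells of lactating mice. The genes were taken by name from the 54532 genes of the count table, and all 10 had reads and passed the filter on low counts that left 9855 genes. The libraries came from 4 WT mice and 4 Rank-knockout mice at lactation day 5, with 1 library per mouse. In the study, Rank-knockout females carried floxed Rank alleles on a C57BL/6J background and a Cre driven by the villin promoter, which is active throughout the intestinal epithelium, and the WT animals were littermates. Dams of both genotypes had been mated with C57BL/6J males. The ages of these 8 dams and the Cre or flox status of each WT mouse are not given in the sources used here. The cells were dissociated from minced intestine and passed through a strainer without a sort, so other cells could be present.

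CCT, also called TRiC, is built of stacked rings in which each of the 8 subunits, encoded by separate genes, takes its own place. It folds actin, tubulins and a set of WD40-repeat proteins that many other chaperones cannot fold, and it receives part of them from prefoldin. The mitochondrial chaperonin folds proteins imported into the matrix: Hspd1 encodes HSP60, which forms the barrel, and Hspe1 encodes HSP10, which forms its lid. In the intestine, cells divide in the crypts and are carried up the villi as they differentiate into absorptive enterocytes.

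The CCT genes lie on 8 chromosomes (GRCm38): Tcp1 at chr17:12915701-12925067, Cct2 at chr10:117051001-117063814, Cct3 at chr3:88297116-88321767, Cct4 at chr11:22990519-23003780, Cct5 at chr15:31590800-31601804, Cct6a at chr5:129786998-129846371, Cct7 at chr6:85451514-85468475 and Cct8 at chr16:87483326-87495873. Hspd1 (chr1:55077835-55088243, minus strand) and Hspe1 (chr1:55088132-55091307, plus strand) stand head to head and share a promoter region. RefSeq promoter windows of 300 bases (GRCm38.p6, 250 before and 50 after a start site) were found for 9 of the 10 genes, in 12 windows. The windows of Hspe1 and Cct5 are shown because they represent both chaperonins, whose genes rose together, and because each holds a heat shock type motif, in capitals.
Hspe1, chr1:55087898-55088197, plus strand: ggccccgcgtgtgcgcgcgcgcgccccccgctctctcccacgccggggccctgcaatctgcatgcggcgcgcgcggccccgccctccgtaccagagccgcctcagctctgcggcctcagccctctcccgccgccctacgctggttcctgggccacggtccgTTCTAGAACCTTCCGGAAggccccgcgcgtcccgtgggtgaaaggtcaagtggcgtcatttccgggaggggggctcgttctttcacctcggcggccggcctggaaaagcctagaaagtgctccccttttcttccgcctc
Cct5, chr15:31601797-31602096, minus strand: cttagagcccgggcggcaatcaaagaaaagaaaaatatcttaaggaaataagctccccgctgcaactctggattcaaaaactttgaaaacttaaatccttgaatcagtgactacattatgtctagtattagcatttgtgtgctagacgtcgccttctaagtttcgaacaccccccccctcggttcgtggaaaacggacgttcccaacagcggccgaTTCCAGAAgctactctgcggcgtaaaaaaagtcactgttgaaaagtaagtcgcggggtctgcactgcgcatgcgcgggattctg
The capitals in the Hspe1 window begin 89 bases before its start site and hold 4 alternating TTC and GAA units, each 2 letters apart. They contain both forms of a 3-unit heat shock element, in which TTCNNGAA and GAANNTTC overlap by 3 letters in either order. Either form, searched on both strands, occurred in 0.6% of 32851 RefSeq windows. The same stretch, read on the other strand, lies in the window of the Hspd1 start at position 55087932, which is 216 bases from the Hspe1 start at position 55088148. The upstream Hspd1 start, at position 55088243, lies within Hspe1, so the genes overlap there. Cct5 has a pair of start sites, and the window shown is that of the upstream one, at position 31601846. Its capitals mark the shorter motif TTCNNGAA, 34 bases before that start, which was not in the window of the other start and was found in 8.52% of all windows and also in those of Cct6a, Hspd1 and Hspe1. GAANNTTC occurred in 7.86% of all windows and in those of Cct2, Hspd1 and Hspe1. The E-box CACGTG, in 7.15% of all windows, was found for 1 of the 9 genes, in the window of the upstream Hspd1 start. CCAAT or ATTGG, in 37.41% of all windows, was found for Tcp1, Cct3, Cct6a, Cct7 and Hspd1. These matches describe letters only, and binding was not measured.

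All 10 chaperonin genes rose in the Rank-knockout libraries. The log2 fold changes (Rank-knockout minus WT) ran from 0.63 for Cct4 to 1.11 for Hspd1, with a median of 0.81 beside 0.02 over all tested genes. In the edgeR test, 1555 of 9855 genes (15.8%) were higher and 1438 (14.6%) were lower at an adjusted p under 0.05, and none of the 10 chaperonin genes was lower. Every Rank-knockout library lay above every WT library for 9 of the 10, against 1422 genes (14.4%) of all tested. Bulk RNA cannot tell fewer cells of a type from less RNA per cell, and this holds for each value below. Levels are given as CPM, read counts scaled to a common library size, and the plot of CPM by library shows every value.

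**Figure D1:**
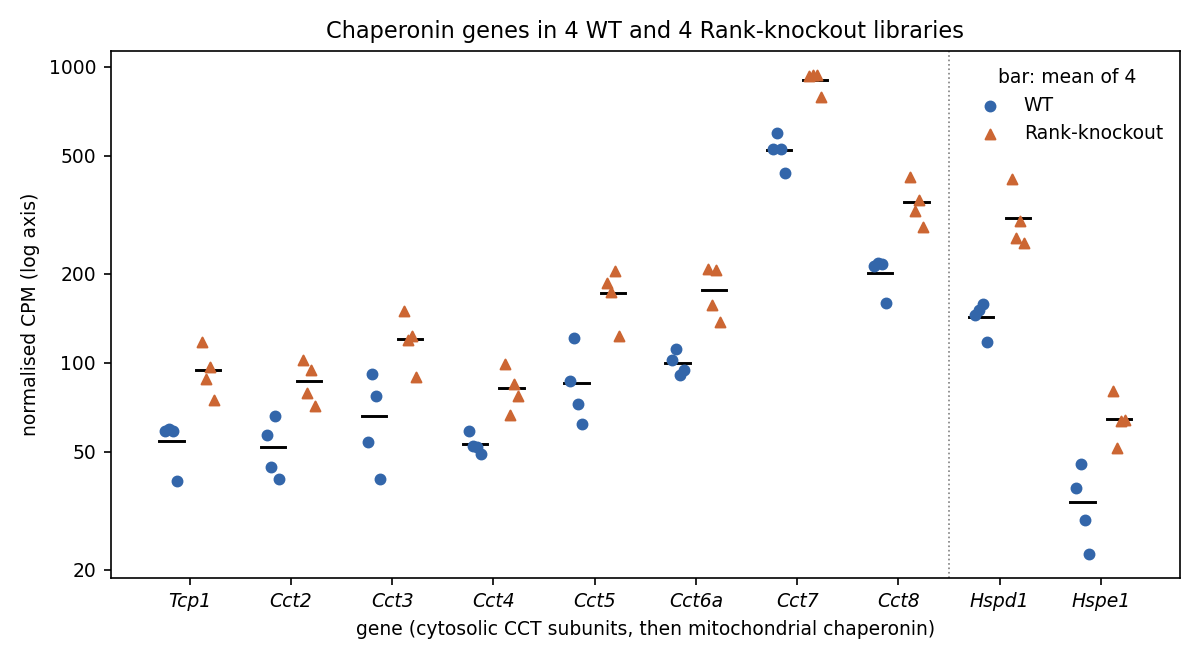
Normalised CPM (log axis) of the 8 CCT genes and, right of the dotted line, Hspd1 and Hspe1. Each point is 1 library (circles, WT; triangles, Rank-knockout; replicates 1 to 4 from left to right) and each bar a mean of 4. The triangles lie above all circles for every gene except Cct3, where the lowest Rank-knockout library (89.6 CPM) is below the highest WT library (91.7 CPM).

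Cct7 was the most abundant chaperonin mRNA. Its CPM were 525.4, 597.5, 529.3 and 436.7 in WT replicates 1 to 4 and 933.5, 935.9, 939.7 and 790.3 in Rank-knockout replicates 1 to 4. The mean rose from 522 ± 66.0 to 900 ± 73.1 CPM (SD, n = 4 per genotype), a 1.72-fold difference with an adjusted p of 0.00110 in edgeR. Cct8 held the next place, with 211.7, 217.4, 215.8 and 159.1 CPM in WT and 425.8, 325.7, 355.2 and 286.8 in Rank-knockout. That was a 1.73-fold rise (log2 fold change 0.79 ± 0.16 SE, adjusted p = 0.00177). In both genes the fourth replicate was the lowest of its genotype, and the groups stayed apart.

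Cct6a and Cct5 were of middle abundance. Cct6a had 102.1, 111.5, 90.8 and 94.5 CPM in WT and 208.0, 157.2, 205.0 and 137.1 in Rank-knockout, a log2 fold change of 0.82 ± 0.16 (SE) with an adjusted p of 0.00159. The annotation used here lists Cct6a as a processed transcript, although RefSeq lists it as protein-coding. Cct5 rose by 0.98 ± 0.20 (log2, SE; adjusted p = 0.00266), the largest value among the CCT genes with all libraries, although without WT replicate 3 Cct3 was level with it (0.88 for both). Its values were 87.0, 121.4, 72.4 and 61.9 CPM in WT and 185.5, 173.7, 203.7 and 123.4 in Rank-knockout. The lowest Rank-knockout library was only 1.02 times the highest WT library, so that the groups of Cct5 barely separated.

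Cct3, Tcp1, Cct2 and Cct4 formed the low end of the CCT genes. Cct3 was at 54.1, 91.7, 77.2 and 40.6 CPM in WT and at 149.2, 119.0, 122.7 and 89.6 in Rank-knockout. It was the chaperonin gene whose groups overlapped, with 3 of 4 Rank-knockout libraries above the highest WT library, and its rise was 0.84 ± 0.22 (log2, SE; adjusted p = 0.0115). Tcp1, the founding member of the family, was at 58.9, 59.5, 58.7 and 39.9 CPM in WT and at 117.8, 88.2, 97.1 and 74.6 in Rank-knockout. WT replicates 1 to 3 lay within 1 CPM of each other and replicate 4 lay below them, and the log2 fold change was 0.79 ± 0.18 (SE; adjusted p = 0.0038). Cct2 went from 52.0 ± 11.8 to 86.6 ± 14.0 CPM, with WT libraries at 56.9, 44.3, 66.2 and 40.6 CPM and Rank-knockout libraries at 101.9, 78.8, 94.4 and 71.4 CPM (adjusted p = 0.0060). Cct4 had the smallest rise, 0.63 ± 0.16 (log2, SE; adjusted p = 0.0072). Its WT libraries were close together at 58.9, 52.5, 51.9 and 49.3 CPM, and its Rank-knockout libraries were at 98.9, 66.8, 85.0 and 77.5 CPM.

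Hspd1 had the largest fold change of the 10 genes with all libraries, although without WT replicate 2 that of Cct5 was larger (1.21 against 1.13 on the log2 scale). Without Rank-knockout replicate 1, Cct5 and Hspd1 were nearly level (0.940 and 0.938). Hspd1 was measured at 144.5, 151.0, 157.8 and 117.2 CPM in WT and at 416.9, 263.0, 301.2 and 254.6 in Rank-knockout. This is a 2.17-fold difference (log2 fold change 1.11 ± 0.17 SE, adjusted p = 0.000388), and the lowest Rank-knockout library was 1.61 times the highest WT library. Rank-knockout replicate 1 stood highest. Hspe1 was at 37.7, 45.6, 29.4 and 22.6 CPM in WT and at 80.0, 51.4, 63.4 and 64.3 in Rank-knockout, a log2 fold change of 0.91 ± 0.21 (SE; adjusted p = 0.00438). Hspe1 rested on the fewest reads, 34 in WT replicate 4, where counting error alone is 17.1%, whereas no Cct7 value rested on fewer than 656 reads.

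Copies of these genes elsewhere in the genome bear on 2 of the values. Of 251 windows of 50 bases over the last 300 bases of the Hspe1 transcript, where 3′ tags fall, 110 (43.82%) were also found in transcripts of other genes, among them Hspe1-ps1, Hspe1-ps3 and Hspe1-ps5. Reads from these windows could have been left out or assigned elsewhere, so the Hspe1 level is uncertain. The share was 0% for the other 9 genes. Hspd1-ps3, a processed copy of Hspd1 on chromosome 11, had 3, 22, 7 and 0 counts in WT and 64, 31, 22 and 19 counts in Rank-knockout, beside 5515 counts of Hspd1 over the 8 libraries. Whether these were Hspd1 reads was not tested. The small nucleolar RNA genes inside Tcp1 and Cct6a exons had 0 counts, and the neighbours that overlap on the opposite strand were kept apart by strand-specific counting.

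Leaving out single libraries or changing the scaling did not end any of these calls. Each gene was recomputed under 17 alternatives, and all 170 values kept their direction and an adjusted p under 0.05. The weakest was Cct3 without WT replicate 1, at an adjusted p of 0.0485. WT replicate 4 was the lowest WT library for 9 of the 10 genes, all but Cct6a, and without it all 10 were still higher. Scaling by library totals moved the median of all genes by 0.20 on the log2 scale. The values of the chaperonin genes moved by about the same amount.

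**Figure D2:**
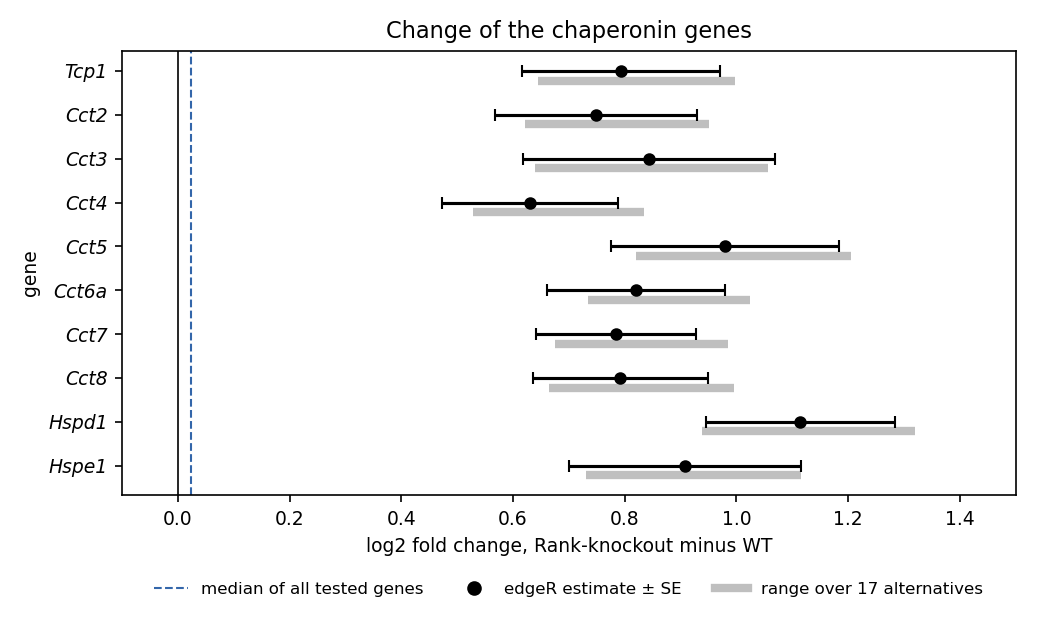
Log2 fold change (Rank-knockout minus WT) of each chaperonin gene. Points and whiskers are the edgeR estimate and its SE, grey bars the range over 17 alternatives, and the dashed line the median of all tested genes (0.02). Every grey bar lies to the right of 0.5.

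The libraries were of 3′ tags, about 1 per transcript, so CPM values could be set side by side without dividing by length. In WT, the order was Cct7, Cct8, Hspd1, Cct6a, Cct5, Cct3, Tcp1, Cct4, Cct2 and Hspe1. The libraries of the first 4 did not overlap from one gene to the next, and from Cct6a on every gene overlapped its neighbour. In Rank-knockout the order was Cct7, Cct8, Hspd1, Cct6a, Cct5, Cct3, Tcp1, Cct2, Cct4 and Hspe1. Here Cct8 and Hspd1 overlapped, while Cct7 stood above Cct8 and Hspd1 above Cct6a. The ratio of the mean level of Cct7 to that of Hspe1 was 15.4 in WT and 13.9 in Rank-knockout. Because 43.82% of the Hspe1 end windows also occur in other genes, its place in both orders and these ratios are uncertain.

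The CCT subunits rose together and their proportions stayed within the spread between libraries. The summed CPM of the 8 CCT genes were 1155, 1296, 1162 and 923 in WT and 2221, 1945, 2103 and 1651 in Rank-knockout, or 1134 ± 155 against 1980 ± 247 (SD, n = 4). Cct7 gave 46.1 ± 0.86% of this sum in WT and 45.7 ± 2.89% in Rank-knockout, and Cct8 gave 17.7 ± 0.86% and 17.5 ± 1.12%. The share of Cct5 was 7.46 ± 1.38% and 8.61 ± 0.93%, and that of Cct4 was 4.74 ± 0.59% and 4.16 ± 0.55%. Each subunit was also set against the mean log2 CPM of the other 7. The difference between genotypes then ran from -0.22 for Cct4 to 0.24 for Cct5, and the libraries of the genotypes overlapped for all 8. As a part of all reads, CCT tags made up 0.105 ± 0.0137% in WT and 0.211 ± 0.0289% in Rank-knockout.

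The mitochondrial pair was compared with itself and with CCT. The log2 ratio of Hspd1 to Hspe1 counts averaged 2.11 ± 0.33 over the WT libraries and 2.24 ± 0.18 over the others (SD, n = 4). The height of these ratios carries the uncertainty of the Hspe1 counts. By library the ratios were 1.93, 1.72, 2.41 and 2.36 in WT and 2.38, 2.35, 2.24 and 1.98 in Rank-knockout. The difference of 0.13 ± 0.19 (SE) did not pass an exact two-sided permutation test (p = 0.543, 70 assignments, smallest possible p 0.0286), and the libraries of the genotypes overlapped. Hspd1 and Hspe1 together averaged 176 ± 25.2 (WT) and 374 ± 85.2 CPM (Rank-knockout). Relative to the CCT sum, the pair stood at 15.8, 15.2, 16.1 and 15.2% in WT and at 22.4, 16.2, 17.3 and 19.3% in Rank-knockout. The lowest Rank-knockout value was thus just above the highest WT value, and Rank-knockout replicate 1 was the highest.

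**Figure D3:**
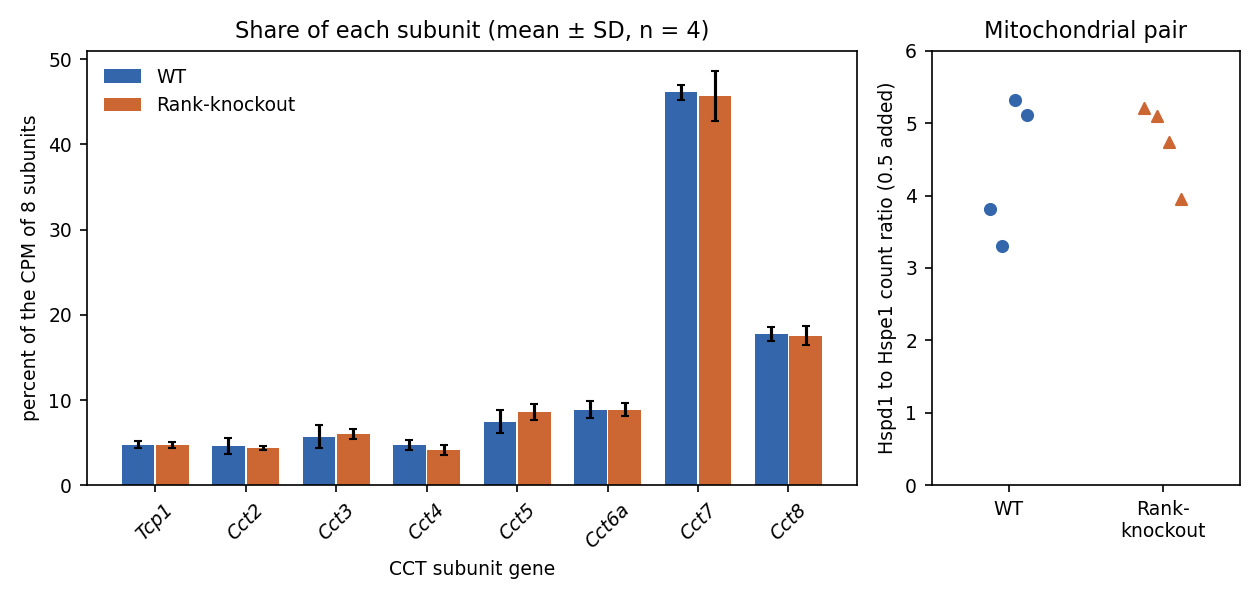
Left, percent of the summed CPM of 8 CCT genes taken by each subunit (bars, mean; whiskers, SD; n = 4 per genotype). Right, ratio of Hspd1 to Hspe1 counts after adding 0.5 to each, with 1 point per library. Cct7 takes 46.1% in WT and 45.7% in Rank-knockout, and the ratios of the genotypes overlap.

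Companion genes of the chaperonins were read against the shares over all tested genes, 15.8% higher and 14.6% lower. Of the 6 prefoldin subunits, which hand unfolded actin and tubulin to CCT, 1 rose and none fell, a share near that of all genes, with a median log2 fold change of 0.34. This was Pfdn2, from 42.9 ± 14.0 to 71.1 ± 8.42 CPM (0.77 ± 0.22 SE, adjusted p = 0.0155). Pfdn6 (0.41, adjusted p = 0.0541), Pfdn4 (0.51, adjusted p = 0.0733) and Pfdn1 (0.27, adjusted p = 0.166) missed the threshold in the main edgeR analysis. They passed it in 5, 2 and 2 of 17 alternatives. With library totals 4 prefoldin genes were higher, while the count over all genes went from 1555 to 2575. None of the 3 tested CCT cofactors of the phosducin-like family passed the edgeR threshold, in the main analysis or under the 17 alternatives, and none had an unadjusted p under 0.05. Txndc9 was at 0.01 and Pdcl3 at 0.37 (log2 fold changes), with Pdcl below both. Txndc9 was well covered, with means of 57.3 ± 2.80 (WT) and 58.1 ± 8.86 CPM (Rank-knockout). Mkks, a chaperonin-like gene, was at 0.05 ± 0.36 (log2, SE), while Cct6b, Bbs10 and Bbs12 had 8, 11 and 9 counts in all and Cct8l1 had none.

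Actin and tubulin, the best known proteins folded by CCT, were covered by 12 tested actin, actin-related and tubulin genes. Of these, 3 rose and 1 fell, with a median of 0.18, beside 15.8% higher and 14.6% lower of all genes. With library totals, 5 rose and none fell, while over all genes 2575 were higher and 857 lower. Tubb5, a beta-tubulin, went from 225 ± 72.1 to 543 ± 160 CPM (1.26 ± 0.26 SE, adjusted p = 0.00341). Tuba1b, an alpha-tubulin, went from 86.4 ± 21.1 to 208 ± 81.7 CPM (1.25 ± 0.26 SE, adjusted p = 0.00353). Tubg1, which nucleates microtubules, rose by 0.76 ± 0.21 (log2, SE; adjusted p = 0.0132), although not without Rank-knockout replicate 2 (adjusted p = 0.0505). The most abundant alpha-tubulin, Tuba1c, named after its values were seen, was at 1518 ± 306 and 1600 ± 368 CPM (0.07, adjusted p = 0.792). Actb, which encodes beta-actin and was by far the most abundant of the list, fell from 13600 ± 1735 to 9115 ± 1966 CPM (-0.58 ± 0.18 SE, adjusted p = 0.0227). The Actb call was lost in 4 of 17 alternatives, and with library totals the value was -0.38 (adjusted p = 0.0843). Near-identical tubulin and actin genes can share reads, so their separate values are uncertain.

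The 6 tubulin folding cofactors, which take tubulin over from CCT, had a median of 0.02 and none rose. Tbcb was lower (-0.38, adjusted p = 0.0445), a call lost in 11 of 17 alternatives. Of 11 WD40-repeat genes, 5 rose and 1 fell, with a median of 0.31, beside 15.8% higher and 14.6% lower of all genes. Rack1, a scaffold on the ribosome, went from 872 ± 261 to 1759 ± 336 CPM (1.01 ± 0.21 SE, adjusted p = 0.0024). Cdc20, an activator of the anaphase-promoting complex, went from 24.4 ± 5.04 to 49.1 ± 14.5 CPM (adjusted p = 0.00397). Rae1 (0.73) and Bub3 (0.62), which act in mRNA export and the spindle checkpoint, also rose. Strap (0.54) and, in the other direction, Gnb1 (-0.45), a G-protein beta subunit, were named after their values were seen, and their calls were lost in 4 and 8 of 17 alternatives.

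Inside mitochondria, the HSP70 system rose in part. Of 8 tested genes of the HSP70 and import motor list, 5 rose and none fell (median 0.61). Of all tested genes, 15.8% were higher and 14.6% lower. Hspa9, the HSP70 of the matrix, was at 241.8, 202.5, 217.9 and 149.8 CPM in WT and at 386.7, 319.0, 345.3 and 334.3 in Rank-knockout (0.77 ± 0.15 SE, adjusted p = 0.00188). Its nucleotide exchange factor Grpel1 (0.69), its J-protein Dnaja3 (0.75) and the mitochondrial HSP90 Trap1 (0.69) rose too. Timm44, which ties Hspa9 to the import channel, rose by 0.52 but was named after its value was seen, and its call was lost in 4 of 17 alternatives. Grpel2 (0.04), Dnajc19 (-0.08) and Dnlz (0.11), also named after their values were seen, did not pass the threshold. Of 10 mitochondrial proteases, 3 rose (median 0.19), beside 15.8% of all genes. Lonp1, the main matrix protease, went from 67.5 ± 8.74 to 121 ± 7.37 CPM (0.84 ± 0.14 SE, adjusted p = 0.000722). Clpp (0.64) was lost without WT replicate 4, and Htra2 (0.71) in 7 of 17 alternatives, so that 1 protease was called without that library.

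The cytosolic HSP70 and HSP90 system held 23 tested genes, of which 14 rose and none fell. The median was 0.57, and of all tested genes 15.8% were higher and 14.6% lower. Without WT replicate 4, 8 of the 23 rose, while the count of higher genes over all went from 1555 to 1020. Hsp90ab1, the constitutive HSP90, was the most abundant chaperone mRNA of the list and went from 2257 ± 420 to 4745 ± 855 CPM (1.07 ± 0.18 SE, adjusted p = 0.000667). Hsp90aa1 (1.08), the HSP110 gene Hsph1 (1.12) and the HSP90 co-chaperone Fkbp4 (0.86) rose too. The J-protein genes of the list, chosen for mention after their values were seen, did not move alike. Dnajc2, which works on the ribosome, rose by 0.99 ± 0.22 (log2, SE; adjusted p = 0.00411), whereas Dnaja1 (0.07), Dnaja2 (0.09), Dnajb1 (-0.12), Dnajb6 (-0.18) and Dnajc7 (-0.01) did not pass the threshold. Hspa1a, a stress-inducible HSP70 gene likewise named after its values were seen, varied from 1.52 to 18.5 CPM among WT libraries and from 0.212 to 12.1 CPM among Rank-knockout libraries (-0.39 ± 1.22 SE).

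**Figure D4:**
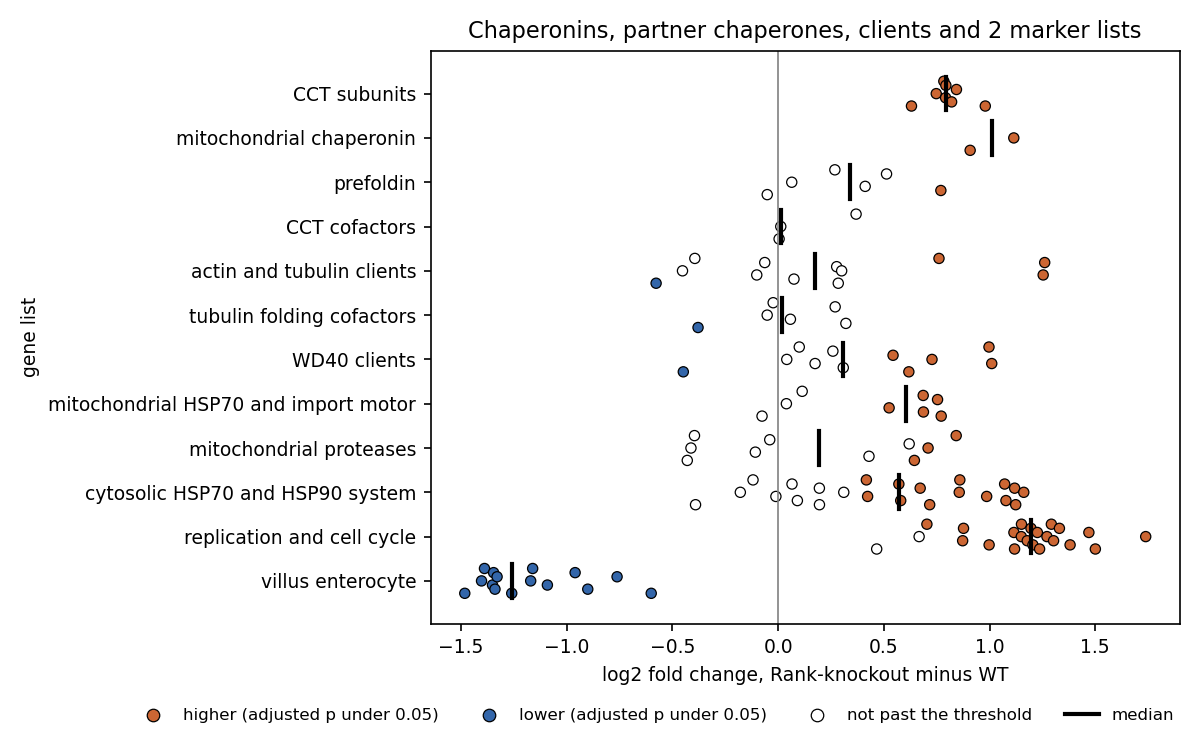
Log2 fold change (Rank-knockout minus WT) of each tested gene of 12 lists, 1 point per gene, filled when the edgeR adjusted p was under 0.05 (orange, higher; blue, lower), with the list median as a bar. The CCT points lie between 0.63 and 0.98, while the medians of the cofactor lists are near 0.

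Among factors linked in textbooks to chaperone and growth gene transcription, 6 were tested. Of these, 1 rose and 2 fell (median -0.33), beside 15.8% higher and 14.6% lower of all genes. Hsf1, the heat shock factor, went from 4.85 to 9.16 CPM (0.97 ± 0.30 SE, adjusted p = 0.0215), near the low end of what was measured, and its call was lost in 4 of 17 alternatives. Mxd1, which pairs with Max and opposes Myc, fell from 1010 to 480 CPM (-1.07 ± 0.23 SE, adjusted p = 0.00319). Max, the partner of both, fell by 0.80 ± 0.18 on the log2 scale (SE; adjusted p = 0.00434). Myc and Mycn had 60 and 32 counts over all libraries and were too low to test.

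The expression profile most like that of CCT was sought over the 8 libraries by the root mean square (RMS) difference of centred log2 CPM. Among 7972 genes with a mean of at least 10 CPM, the median difference from the CCT mean was 0.52. With the chaperonin genes left out of the search, the closest were Usp10 (0.059), a deubiquitinase, Hnrnpa0 (0.075), an RNA-binding protein, Cacybp (0.075), a calcyclin-binding protein, Eif3b (0.081), a translation initiation factor, and Parm1 (0.082). Usp10 went from 39.0 to 67.9 CPM. The profiles closest to the mean of Hspd1 and Hspe1 were Prc1 (0.089), needed for cytokinesis, Bcs1l (0.108), an assembly factor of respiratory complex III, Naa50 (0.111), an acetyltransferase, Kif15 (0.113), a kinesin, and Grk6 (0.123), a receptor kinase, against a median of 0.63. All 8 libraries enter each measure, genotype included, so these genes also differ between genotypes.

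Cell type markers moved along with the chaperonin genes, and their part in the result was not tested. The counts per list stand beside 15.8% higher and 14.6% lower of all tested genes. Of 23 tested replication and cell cycle genes, 21 rose (median 1.20), Aurka, Ccna2 and Birc5 with the smallest p, and their summed CPM ran from 837 to 1315 in WT and from 2054 to 3294 in Rank-knockout. All 15 villus enterocyte genes fell (median -1.26), Pdzk1, Cdhr2 and Treh with the smallest p, and their sum ran from 27776 to 37624 CPM in WT and from 12689 to 16535 in Rank-knockout. With library totals, and likewise without WT replicate 4, 13 of the 15 fell. Both sums separated the genotypes as the CCT sum did. General epithelial markers were high in all libraries, at 9544 to 10502 CPM in WT and 8040 to 10352 in Rank-knockout, with 2 of 7 higher and 2 lower. The 4 epithelial genes past the threshold were Vil1 (-0.80), Krt19 (0.65), Epcam (-0.45) and Krt18 (0.41), of which Krt18 was named after its value was seen. The Epcam call was lost in 7 of 17 alternatives and that of Krt18 in 9. The median of this list, -0.08, changed sign to 0.12 with library totals.

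Of 5 Paneth cell genes, 4 rose (median 1.21), among them Ang4 (1.22), Itln1 (0.99) and Mmp7 (1.34), but 1 rose without WT replicate 4. The calls of Ang4, Itln1 and Mmp7 were lost in 1, 6 and 8 of 17 alternatives, those of Ang4 and Mmp7 with the replicate block among them, and the summed ranges overlapped (1425 to 2916 CPM in WT, 1913 to 5954 CPM in Rank-knockout). Of 7 goblet cell genes, 2 rose (Agr2, 0.85, and Spink4, 1.03) and 4 fell, led by Zg16 (-0.91), with a median of -0.58. For this list too, 15.8% higher and 14.6% lower of all tested genes stand beside the counts. With library totals, 2 goblet cell genes fell. The sum ran from 13084 to 17410 CPM in WT and from 7363 to 10073 in Rank-knockout. None of 6 enteroendocrine genes (median 0.08) and 2 tuft cell genes (median -0.32) passed the edgeR threshold, although Chgb passed it in 3 and Gcg in 1 of 17 alternatives. Immune and stromal markers were low. T cell genes summed to 172 to 264 CPM in WT and 117 to 189 in Rank-knockout, with none of 5 called (median -0.29) except Gzma when WT replicate 2 was left out. B and plasma cell genes summed to 54.6 to 154 CPM and 9.89 to 53.3 CPM, with Igkc lower (-1.90) and Cd79a at 0. Igha (-1.49, adjusted p = 0.0664) missed the threshold and passed it in 4 of 17 alternatives. Myeloid genes summed to at most 14.4 CPM in any library, with none tested and Adgre1 at 0. Stromal, endothelial and muscle genes summed to at most 22.1 CPM, with Vim the only one tested and Tagln at 0.

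Total counts ran from 1530781 to 4335653 in WT and from 2103716 to 4321154 in Rank-knockout. Tnfrsf11a, the gene of RANK, had 113, 196, 61 and 111 counts in WT and 128, 112, 79 and 179 counts in Rank-knockout (log2 fold change -0.67 ± 0.22 SE, adjusted p = 0.032). The genotypes overlapped, and the call was lost in 6 of 17 alternatives. Because 3′ tags can fall outside the floxed exons, this level does not check the genotype labels.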

How the data were processed

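3′ mRNA-seq counts from intestinal epithelial cells of 4 WT and 4 Rank-knockout mice at lactation day 5 were analysed, grouped by the sample labels. According to the study's methods, BBDuk was used for trimming, bowtie2 for the removal of ribosomal and other abundant sequences, STAR for alignment to GRCm38, and featureCounts for strand-specific counting per Ensembl gene. The authors deposited raw counts without normalization. The methods of the 3′ mRNA-seq libraries mention no molecular identifiers, and PCR copies may therefore be counted. The table had 54532 genes and totals of 1530781 to 4335653 counts per library, and counting errors given here cover counting only. Symbols, positions and transcripts came from GENCODE M21, which held 54495 of the identifiers.

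Counts were filtered with filterByExpr, scaled by TMM and tested with the robust quasi-likelihood test of edgeR 4.0.16 (R 4.3.3), on a design of genotype alone. Benjamini-Hochberg adjustment ran over 9855 genes, with a threshold of 0.05. SEs were derived from the F statistic. CPM were computed with TMM-adjusted library sizes. The ratio of Hspd1 to Hspe1 counts (0.5 added to each) was tested by exact permutation. The test was first run on simulated data with known changes. Results were recomputed with other scalings (library totals, RLE, and library sizes that leave out the 50 most abundant genes), other filters (none, or mean CPM 5 and above), other tools (limma-voom 3.58.1, DESeq2 1.42.0), a replicate block, counts thinned to the shallowest library, and each library left out.

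The 10 genes, the companion lists and the marker lists were chosen with earlier results of these data known. Beside the 10, the text names Tnfrsf11a, up to 4 genes with the smallest p per companion list, up to 3 per marker list, and the 5 closest profiles to each chaperonin, with exceptions stated. Replicates are separate mice by their labels, and no pair of libraries of a genotype agreed within sampling noise.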

Additional observations from a re-analysis of the deposited data

Results flagged for a closer look

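In groups of 4 libraries, a library was taken as far from the others when its gap to the nearest, as a share of the group's range, exceeded the critical value of Dixon's test at the 95% level, which chance gives in about 1 of 20 groups. Of 24 groups examined, 3 met it, against 1.2 by chance. Tcp1 in WT replicate 4 was at 39.9 CPM, with the other WT libraries at 58.7 to 59.5 CPM. Cct8 in the same library was at 159 CPM, with the others at 212 to 217 CPM. Cct7 in Rank-knockout replicate 4 was at 790 CPM, with the others at 934 to 940 CPM. Both WT values lie on the side away from Rank-knockout, and the calls of Tcp1 and Cct8 held without that library.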

How the results depend on the processing

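All 10 chaperonin genes kept their direction and call under each of 17 alternatives. The count of genes higher in Rank-knockout over all genes was 1555 in the main analysis and 2575 with library totals, and ran from 1020 (without WT replicate 4) to 1723 when single libraries were left out. The count of lower genes was 1438 in the main analysis and 857 with library totals, and ran from 1097 to 1564 when single libraries were left out. Library totals put 75.0% of calls on the higher side, against 52.0% in the main analysis and 68.6% without the 50 most abundant genes in the library size. The log2 difference of the CCT sum was 0.80, 1.01 with library totals, and 0.72 to 0.88 with single libraries left out. The log2 ratio of Hspd1 to Hspe1 differed by 0.13 in the main analysis and by 0.0072 to 0.24 with single libraries left out, and missed the threshold in each.

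The labels do not say that replicate numbers pair mice across genotypes, and the correlations given here cannot decide it. The deviations of same-numbered libraries correlated at 0.05, 0.15, -0.14 and 0.32. In this comparison, 2 of 4 libraries correlated best with their own number. With the replicate number as a block, 1708 genes were higher and 1602 lower, and all 10 chaperonin genes were called. Depth limits Hspe1 and the low companions most.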
